A study of Mus musculus with 25 samples.

Results

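Cell cycle and proliferation genes were followed in bulk liver RNA of 25 mice. The set holds 40 genes chosen by name as markers and effectors of DNA replication and mitosis, out of 30524 genes listed in the tables. All 40 were found in the tables and passed the filter on low values, which left 17413 genes for testing. All mice were C3H/HeJ, a strain prone to liver cancer, obtained at 5 weeks of age and labelled male. In 4 groups the mice had received diethylnitrosamine (DEN), a carcinogen that liver enzymes activate, at 25 mg/kg by intraperitoneal injection. It was given 2 times a week for 3 weeks in each of 5 cycles over 4 months. After a rest of a month, 5 of these mice received caffeine by gavage at 50 mg/kg 3 times a week (DEN_CAF). Sorafenib, a kinase inhibitor used against liver cancer, was given by gavage to 4 mice at 30 mg/kg 2 times a week (DEN_SOR). The combination was given to 5 mice (DEN_CAF_SOR), and 6 mice received the drug vehicles after the carcinogen (DEN). The drug phase lasted 3 weeks. The 5 Untreated mice had received saline in place of the carcinogen and then the drug vehicles. The labels give liver as the tissue, and neither the age at sampling nor whether visible lesions were taken or left out. Each library is labelled as a separate mouse.

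Dividing cells switch these genes on in waves. E2F factors released from the retinoblastoma protein turn on G1/S genes, which license origins and supply nucleotides, and the MuvB complex with B-MYB and FOXM1 later turns on the G2/M genes that build and control the spindle. Adult hepatocytes are almost all out of the cycle, so these transcripts are scarce in healthy liver and are used to follow regeneration and tumour growth. Values below are FPKM, the usual read rate per gene length and library size, here from reads scaled by TMM factors. The 25 libraries held 14750278 to 21992613 reads. In Untreated livers 34 of the 40 genes averaged under 1 FPKM, and 23 genes had fewer than 10 reads in at least 1 library. In bulk RNA, fewer dividing cells and less RNA per dividing cell cannot be told apart.

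The promoters of 32 of the 40 genes were matched in RefSeq (build GRCm38.p6, from 250 bases before to 50 bases after the start site), and 4 are shown: those of Cdk1 and Ccnb1, which rose in DEN livers, and those of Top2a and Mcm6, which carry elements typical of the G2/M and the G1/S wave. Capitals mark the CHR (TTTGAA or TTCGAA), at which MuvB binds, the CCAAT box bound by NF-Y, and E2F sites (TTTCCCGC, TTTCGCGC, TTTGCCGC or TTTGGCGC), each searched on both strands.
Cdk1 (chr10:69352863-69353162, minus strand): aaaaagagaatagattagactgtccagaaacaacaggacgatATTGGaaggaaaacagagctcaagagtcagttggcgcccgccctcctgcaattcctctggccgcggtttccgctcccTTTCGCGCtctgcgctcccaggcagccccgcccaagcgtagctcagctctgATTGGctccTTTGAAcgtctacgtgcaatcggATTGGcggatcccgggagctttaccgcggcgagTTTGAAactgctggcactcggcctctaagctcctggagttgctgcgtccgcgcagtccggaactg
Ccnb1 (chr13:100786437-100786736, minus strand): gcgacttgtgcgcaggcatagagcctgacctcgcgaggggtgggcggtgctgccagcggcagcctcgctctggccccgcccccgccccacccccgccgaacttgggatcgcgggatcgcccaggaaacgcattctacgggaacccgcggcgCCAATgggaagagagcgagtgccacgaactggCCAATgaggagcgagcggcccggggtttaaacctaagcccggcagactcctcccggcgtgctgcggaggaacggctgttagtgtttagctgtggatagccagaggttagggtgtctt
Top2a (chr11:99024140-99024439, minus strand): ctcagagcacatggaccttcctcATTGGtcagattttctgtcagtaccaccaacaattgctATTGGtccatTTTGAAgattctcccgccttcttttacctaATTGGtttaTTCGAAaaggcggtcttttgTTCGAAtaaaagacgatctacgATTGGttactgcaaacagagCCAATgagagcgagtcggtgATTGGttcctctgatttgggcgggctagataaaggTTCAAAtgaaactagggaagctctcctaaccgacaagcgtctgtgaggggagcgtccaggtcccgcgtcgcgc
Mcm6 (chr1:128359656-128359955, minus strand): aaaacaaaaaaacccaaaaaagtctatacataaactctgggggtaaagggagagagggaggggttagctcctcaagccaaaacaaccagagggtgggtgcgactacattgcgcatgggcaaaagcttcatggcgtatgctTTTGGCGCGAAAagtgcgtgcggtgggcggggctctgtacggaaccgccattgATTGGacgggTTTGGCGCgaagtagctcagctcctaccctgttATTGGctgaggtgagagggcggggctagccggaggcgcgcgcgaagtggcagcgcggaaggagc
The Cdk1 promoter held 2 CHR matches, 3 CCAAT boxes and 1 E2F match, and that of Top2a held 4 CHR matches and 6 CCAAT boxes. The Ccnb1 window held 2 CCAAT boxes and neither of the other elements. The Mcm6 window held 3 E2F matches, of which 2 overlap on opposite strands, and 2 CCAAT boxes. A CHR was present in 14 of the 18 promoters of mitotic and marker genes, in 2 of the 14 promoters of G1/S, replication and nucleotide genes, and in 19.4% of 27025 mouse promoters of this length. An E2F match was present in 1 of the 18, in 6 of the 14 and in 2.32% of all promoters. The CCAAT box was in 16 of the 18, in 8 of the 14 and in 37.9% of all. A match describes the letters only.

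Some libraries stood apart or went against their labels. The Untreated libraries 3, 4 and 5 held 22879, 29770 and 13370 reads of Xist, the RNA that coats the inactive X chromosome in female cells, while no other library held more than 21. These 3 libraries also held few reads of the Y-linked Ddx3y (84, 30 and 48). DEN 4 had 132 reads of Ddx3y, against 914 to 1689 in the other carcinogen mice, but its 1004 reads of the Y-linked Eif2s3y and 286 of Uty lay within the range of those mice (884 to 1724 and 248 to 483), and its 150 reads of Kdm5d lay just below (179 to 438). DEN 4 also had the highest summed level of 8 oncofetal tumour markers (1549 FPKM, against 244.9 in DEN 3 and at most 99.35 elsewhere), of 6 neutrophil markers (404.9 FPKM, against 50.29 in DEN 3 and at most 29.3 elsewhere, with Ngp at 0 reads in 10 libraries) and of 8 hepatocyte markers (93050 FPKM, against 26320 to 50750 in the others). All these sums rested largely on few genes. Over the DEN mice H19 averaged 233.6 FPKM, against 30.31 for Afp and 0.007701 for Igf2. S100a9 and S100a8 averaged 50.06 and 27.72 FPKM, against 2.927 for Retnlg and 0.4602 for Ly6g. Alb, Apoa1 and Ttr averaged 28010, 9831 and 5352 FPKM, against 281.3 for Fah and 80.74 for Hnf4a. All 8 hepatocyte markers, among them Alb, Ttr and Cps1, were detected in every library. Libraries numbered 3 or 4 carried 6.36% to 34.8% of reads on mitochondrial genes, against 5.65% to 9.81% in the other 15. Results are therefore also given without DEN 4, without the 3 Xist-bearing libraries, and within these number classes.

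Most of the 40 genes lay higher in DEN than in Untreated livers, and few of them passed the test one by one. The log2 fold change was positive for 36 of the 40 genes, with a median of 0.87, against a median of 0.0025 over all tested genes. By limma with Benjamini-Hochberg adjustment over all tested genes, 4 of the 40 rose (E2f1, Cdk1, Ccnb1 and Stmn1) and 0 fell, where 1.46% of all genes were called higher and 1.71% lower. At an unadjusted p under 0.05 stood 25 of the 40, and 18.4% of all genes. In 8 genes (Mki67, Top2a, Mcm6, Cdk1, Ccnb1, Aurkb, Cenpf and Stmn1) every DEN mouse lay above every Untreated mouse, a pattern seen in 2.07% of all genes, and in 0 genes did every DEN mouse lie below (2.15% of all genes). Of these 8, Ccnb1, Aurkb and Cenpf had no Untreated library at the filter minimum. They passed the filter only through carcinogen mice, so their separation and the Ccnb1 call do not count as support. The call counts hang on single libraries and on the tool. edgeR called 10 of the 40 higher (2.83% of all genes) and DESeq2 called 20 higher (6.2% of all genes). Both counts include Bub1, and that of DESeq2 also Ttk and Ube2c, which passed the filter only with carcinogen mice. Limma called 0 without DEN 3, without DEN 4 or without any 1 of Untreated 1 to 4, and 2 without DEN 2 or without Untreated 5. Shares of all genes called in these reduced fits are not given, so the lower counts cannot be read as particular to the 40 genes. The median change was 0.61 without DEN 4 and 1.10 without the 3 Xist-bearing Untreated libraries, although 0 genes were then called in either case. Within the libraries numbered 3 or 4 the median was 1.47 with 9 genes called, and within the rest it was 0.52 with 0 called. The former class sets DEN 3 and 4 against Untreated 3 and 4, both Xist-bearing. Number class, DEN 4 and the Xist reads cannot be told apart there.

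**Figure D1:**
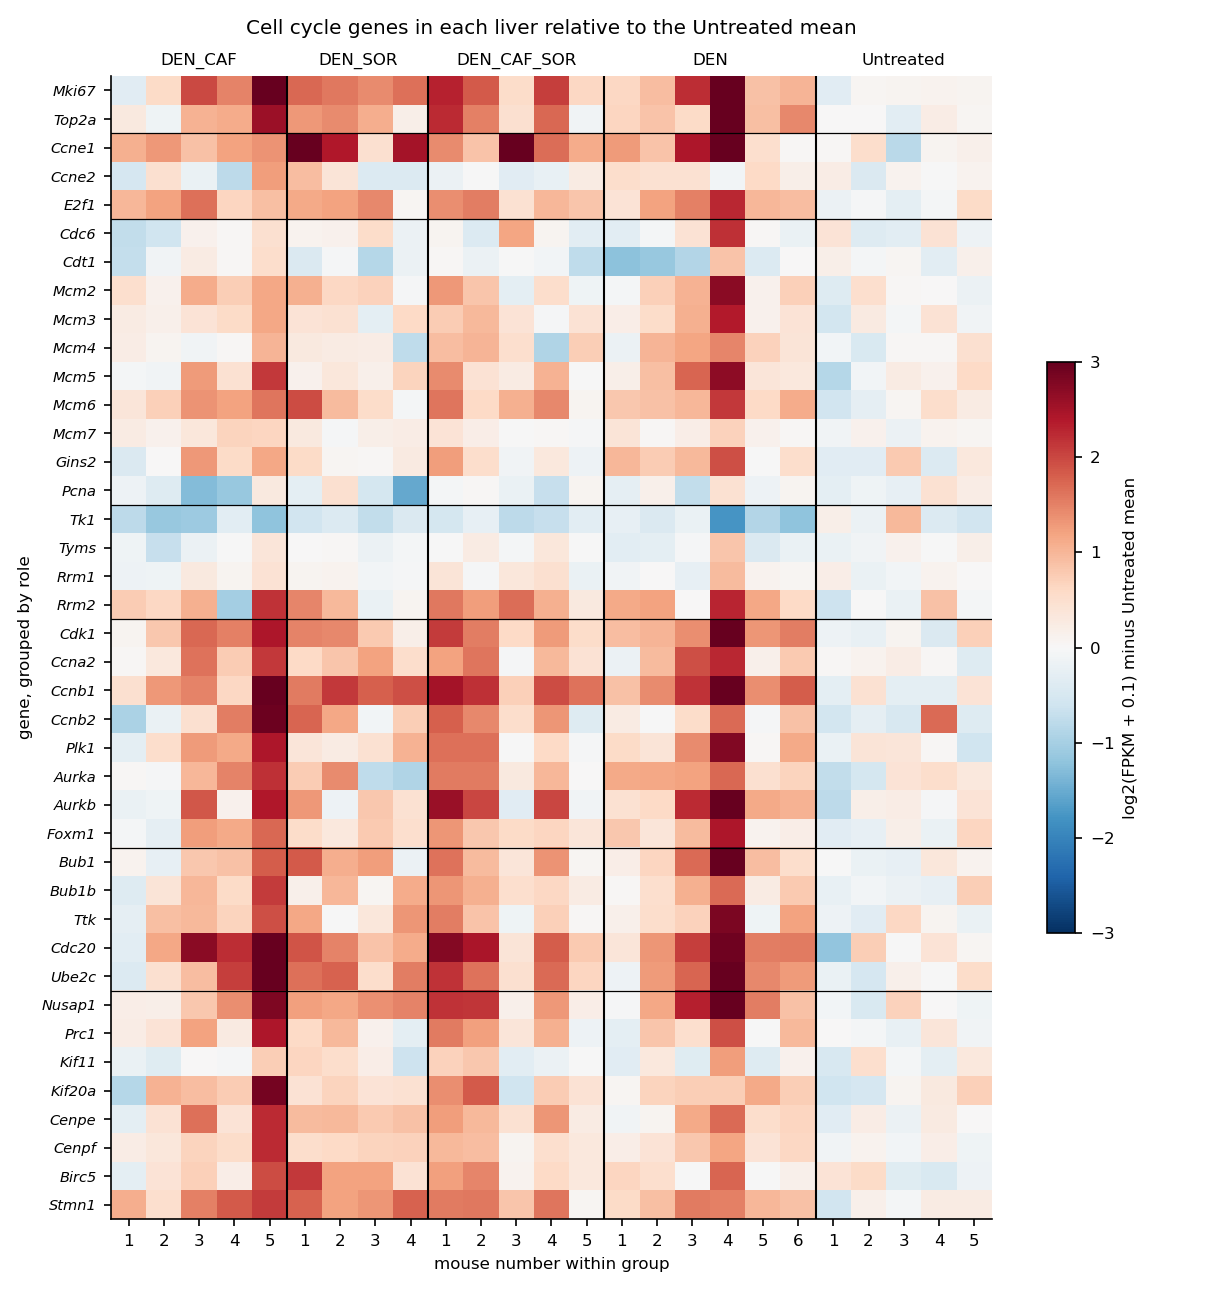
Level of each of the 40 genes (rows, grouped by role) in each mouse (columns, by group and mouse number), as log2(FPKM + 0.1) minus the mean of the 5 Untreated mice. Red columns at DEN_CAF 5 and DEN 4 run through nearly all roles, while Tk1 is blue in DEN 4.

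The 2 general markers were among the members with the largest differences. Mki67 (ENSMUSG00000031004, chr7:135291513-135318090 in GRCm39, minus strand) encodes the Ki-67 protein that coats mitotic chromosomes and is the standard histological marker of cycling cells. It stood at 0.117, 0.312, 0.995, 0.670 and 2.19 FPKM in DEN_CAF mice 1 to 5 and at 0.814, 0.734, 0.637 and 0.768 FPKM in DEN_SOR mice 1 to 4. It stood at 1.26, 0.894, 0.302, 1.06 and 0.324 FPKM in DEN_CAF_SOR mice, at 0.322, 0.425, 1.19, 3.38, 0.412 and 0.465 FPKM in DEN mice, and at 0.119, 0.190, 0.195, 0.197 and 0.191 FPKM in Untreated mice. All DEN, DEN_SOR and DEN_CAF_SOR mice exceeded all Untreated mice, DEN_CAF 1 was just below the lowest Untreated mouse, and DEN 4 and DEN_CAF 5 were far above their groups. The log2 fold change in DEN against Untreated was 1.73 (SE 0.55, limma adjusted p = 0.0827). Top2a, the topoisomerase that untangles replicated chromosomes, was at 0.125, 0.0684, 0.279, 0.298 and 0.988 FPKM in DEN_CAF and at 0.355, 0.392, 0.289 and 0.107 FPKM in DEN_SOR. It was at 0.761, 0.426, 0.154, 0.501 and 0.0710 FPKM in DEN_CAF_SOR, at 0.186, 0.234, 0.174, 1.68, 0.241 and 0.397 FPKM in DEN, and at 0.0863, 0.0862, 0.0461, 0.113 and 0.0923 FPKM in Untreated mice. The DEN and Untreated ranges did not overlap, and the other carcinogen groups each reached down into the Untreated range. Its log2 fold change in DEN was 1.51 (SE 0.53, limma adjusted p = 0.120).

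The G1/S switch was represented by cyclins E and E2F1. E2f1 (ENSMUSG00000027490, chr2:154401327-154411812, minus strand), which encodes an activator of S phase genes, was at 0.887, 1.03, 1.46, 0.668 and 0.819 FPKM in DEN_CAF, at 0.986, 1.03, 1.24 and 0.408 FPKM in DEN_SOR and at 1.20, 1.33, 0.575, 0.884 and 0.774 FPKM in DEN_CAF_SOR. It was at 0.551, 1.04, 1.30, 2.25, 0.887 and 0.841 FPKM in DEN and at 0.336, 0.381, 0.301, 0.370 and 0.629 FPKM in Untreated mice. In DEN only mouse 1 fell inside the Untreated range, set at its top by Untreated 5. E2f1 rose in DEN by 1.13 on the log2 scale (SE 0.28, limma adjusted p = 0.0281). Ccne1 (ENSMUSG00000002068, chr7:37797409-37806959, minus strand), which encodes cyclin E1, the partner of CDK2 at S phase entry, had a pattern of its own. It was at 0.590, 0.716, 0.503, 0.653 and 0.733 FPKM in DEN_CAF, at 3.38, 1.63, 0.357 and 1.75 FPKM in DEN_SOR and at 0.773, 0.492, 3.51, 0.943 and 0.612 FPKM in DEN_CAF_SOR. It was at 0.696, 0.495, 1.67, 4.43, 0.370 and 0.238 FPKM in DEN and at 0.239, 0.371, 0.0891, 0.248 and 0.265 FPKM in Untreated mice. The highest values came from DEN_SOR 1, DEN_CAF_SOR 3 and DEN 4, while DEN_CAF mice lay close together just above the Untreated range. DEN_CAF_SOR 3 was highest of its group for 3 of the 40 genes, Ccne1 among them, where 23.4% of all genes peaked in that mouse. The log2 fold change was 1.30 in DEN (SE 0.51, limma adjusted p = 0.164) and 1.95 in DEN_SOR (SE 0.57, limma adjusted p = 0.0443). Ccne2, the other cyclin E gene, had a log2 change of 0.32 in DEN (limma adjusted p = 0.551).

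Genes of origin licensing and replication lay higher in DEN for 8 of 10, with a median log2 change of 0.75. Limma called 0 of the 10, and 6 stood at an unadjusted p under 0.05 (18.4% of all genes). DESeq2 called Mcm2, Mcm3, Mcm5 and Mcm6 higher (6.2% of all genes), and edgeR called none of the 10 (2.83% of all genes called higher). Mcm2 to Mcm7 encode the 6 subunits of the replicative helicase. Mcm2 was at 0.367, 0.258, 0.616, 0.454 and 0.636 FPKM in DEN_CAF, at 0.592, 0.408, 0.432 and 0.220 FPKM in DEN_SOR and at 0.718, 0.490, 0.169, 0.377 and 0.201 FPKM in DEN_CAF_SOR. It was at 0.216, 0.440, 0.583, 2.07, 0.261 and 0.440 FPKM in DEN and at 0.152, 0.365, 0.239, 0.234 and 0.193 FPKM in Untreated mice. DEN 4 alone stood clear of the rest, and all 5 groups overlapped otherwise. The log2 change of Mcm2 in DEN was 0.93 (SE 0.39, limma adjusted p = 0.201), and it was 0.55 without DEN 4. The other helicase genes ran from 0.24 (Mcm7) to 1.08 (Mcm6). Mcm7 was also the most abundant of the 6 per length, at 4.51 ± 0.885 FPKM in DEN (SD, n = 6) and 3.75 ± 0.346 FPKM in Untreated mice (SD, n = 5). The log2 change was 0.82 for Gins2, a helicase cofactor, and 0.35 for Cdc6, a licensing factor. Cdt1, its partner in loading the helicase, had a negative change of -0.44, and Mcm7, Gins2, Cdc6 and Cdt1 all overlapped between DEN and Untreated.

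Pcna, the sliding clamp of DNA polymerase that is also used in repair, was among the most abundant members. It was at 4.84, 4.11, 2.12, 2.39 and 6.61 FPKM in DEN_CAF, at 4.40, 7.49, 3.69 and 1.78 FPKM in DEN_SOR and at 5.14, 5.51, 4.71, 3.30 and 5.69 FPKM in DEN_CAF_SOR. It was at 4.42, 6.02, 3.18, 7.49, 4.86 and 5.67 FPKM in DEN and at 4.39, 4.92, 4.499, 7.43 and 6.27 FPKM in Untreated mice. The groups overlapped throughout, and DEN 4 was level with DEN_SOR 2 and Untreated 4. The log2 change in DEN was -0.08 (95% interval -0.68 to 0.53, limma adjusted p = 0.915), and its sign turned under other scalings. A listed pseudogene, Pcna-ps2, had 28 to 193 reads, with the highest count in DEN 4. The split of reads between the copies is uncertain, and so is the standing of DEN 4 for Pcna.

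Of the 4 nucleotide supply genes, Rrm2 and Rrm1 had a positive and Tk1 and Tyms a negative log2 change in DEN. Limma, edgeR and DESeq2 called 0 of the 4, and 2 stood at an unadjusted p under 0.05 in limma (18.4% of all genes). Rrm2, the S phase subunit of ribonucleotide reductase, was at 0.761, 0.688, 0.966, 0.152 and 2.21 FPKM in DEN_CAF, at 1.30, 0.908, 0.343 and 0.436 FPKM in DEN_SOR and at 1.41, 1.12, 1.52, 0.966 and 0.525 FPKM in DEN_CAF_SOR. It was at 1.02, 1.08, 0.410, 2.40, 1.05 and 0.666 FPKM in DEN and at 0.230, 0.408, 0.343, 0.844 and 0.393 FPKM in Untreated mice. DEN_CAF 4 was below every Untreated mouse, and Untreated 4 lay among the carcinogen mice. The log2 change of Rrm2 in DEN was 0.96 (SE 0.41, limma adjusted p = 0.197). The log2 change was 0.13 for its partner subunit gene Rrm1 and -0.08 for the thymidylate synthase gene Tyms. Tk1, the thymidine kinase that salvages thymidine for DNA synthesis, had its highest levels in Untreated mice. It was at 5.60, 4.43, 4.58, 7.89 and 4.18 FPKM in DEN_CAF, at 6.57, 7.39, 5.81 and 7.28 FPKM in DEN_SOR and at 6.74, 8.21, 5.66, 5.99 and 7.80 FPKM in DEN_CAF_SOR. It was at 8.22, 7.21, 8.56, 2.79, 5.30 and 4.22 FPKM in DEN and at 11.1, 8.72, 19.2, 7.40 and 6.54 FPKM in Untreated mice. It is given in full after its values were seen. DEN 4, the highest of its group for 36 of the 40 genes (25% of all genes), had the lowest Tk1 level of all 25 mice. Untreated 3 had the highest. The log2 change of Tk1 was -0.79 in DEN (SE 0.26, limma adjusted p = 0.0978) and -0.90 in DEN_CAF (SE 0.27, limma adjusted p = 0.1004). DESeq2 called Tk1 lower in DEN_CAF against Untreated.

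**Figure D2:**
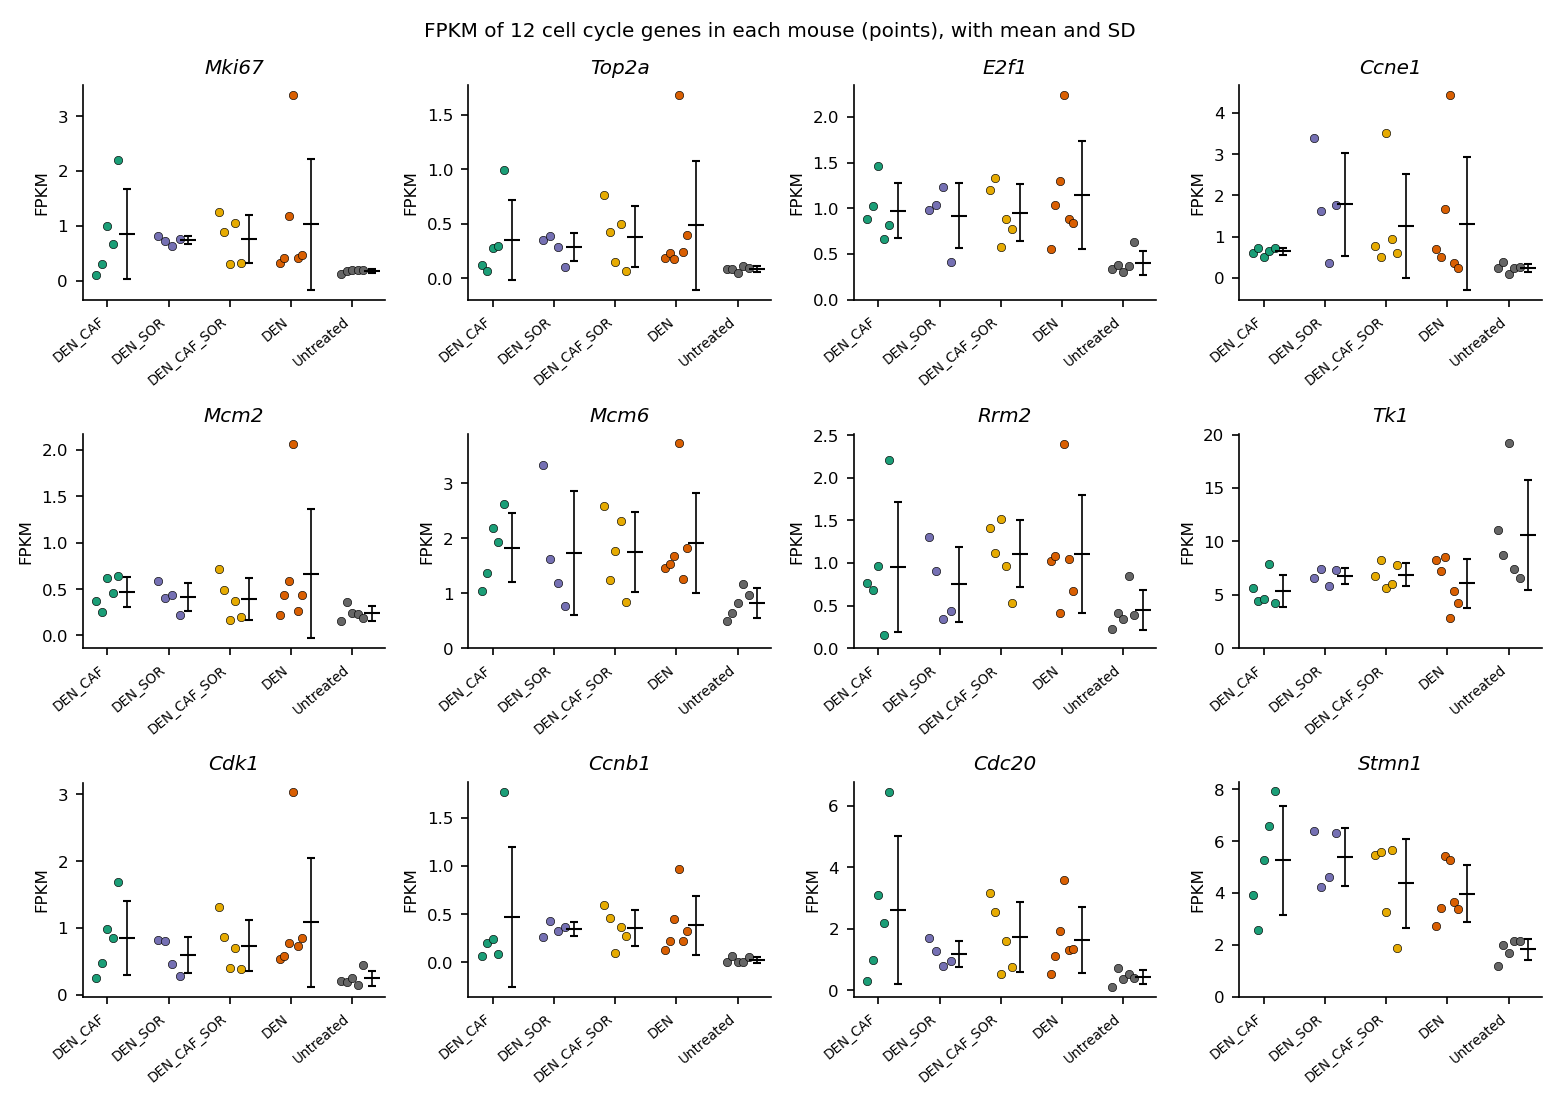
FPKM of 12 of the 40 genes in each mouse (points), with the mean and SD of each group to the right of its points; groups run from DEN_CAF at the left to Untreated at the right. In DEN, DEN 4 is the top point for all shown genes but Stmn1, where DEN 3 is higher, and Tk1, where it is the lowest point.

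The 8 genes of mitotic cyclins, their kinases and FOXM1 were all positive in DEN, with a median log2 change of 0.91. Cdk1 (ENSMUSG00000019942, chr10:69170976-69188768, minus strand), the kinase that drives entry into mitosis, was at 0.249, 0.477, 0.987, 0.843 and 1.69 FPKM in DEN_CAF, at 0.825, 0.803, 0.467 and 0.277 FPKM in DEN_SOR and at 1.32, 0.859, 0.400, 0.701 and 0.389 FPKM in DEN_CAF_SOR. It was at 0.528, 0.577, 0.778, 3.03, 0.724 and 0.854 FPKM in DEN and at 0.201, 0.186, 0.253, 0.144 and 0.441 FPKM in Untreated mice. The DEN mice other than mouse 4 lay close together, and none overlapped the Untreated mice. Cdk1 rose in DEN by 1.57 on the log2 scale (SE 0.41, limma adjusted p = 0.0357). Ccnb1 (ENSMUSG00000041431, chr13:100915158-100923078, minus strand), which encodes cyclin B1, the activating partner of CDK1, was at 0.0698, 0.199, 0.241, 0.0874 and 1.76 FPKM in DEN_CAF, at 0.260, 0.431, 0.321 and 0.363 FPKM in DEN_SOR and at 0.593, 0.456, 0.101, 0.370 and 0.276 FPKM in DEN_CAF_SOR. It was at 0.124, 0.225, 0.449, 0.965, 0.221 and 0.328 FPKM in DEN and at 0, 0.0670, 0, 0 and 0.0607 FPKM in Untreated mice. Every carcinogen mouse exceeded every Untreated mouse, in which the gene had 0 reads in 3 libraries and 4 reads in each of the others. A listed pseudogene, Ccnb1-ps, had 0 to 4 reads. Ccnb1 rose in DEN by 1.66 (SE 0.45, limma adjusted p = 0.0401) and in DEN_SOR by 1.70 (SE 0.49, limma adjusted p = 0.0445), sizes that depend on the added 0.5 CPM. Ccnb1, Aurkb, Bub1 and Cenpf passed the filter on low values with no Untreated library at the minimum, so they could pass only through the carcinogen groups. Of the other mitotic kinases, the log2 change in DEN was 1.28 for Aurkb, 0.87 for Plk1 and 0.86 for Aurka, which drive chromosome and spindle steps, with limma adjusted p-values of 0.176, 0.231 and 0.202. Plk1 and Aurka, with 3 Untreated libraries at the minimum, also needed carcinogen mice to pass the filter. Ccna2 (cyclin A2), Foxm1 (a G2/M transcription factor) and Ccnb2 (cyclin B2) had log2 changes of 0.95, 0.84 and 0.40, none of them called by limma. For Ccnb2, Untreated 4 at 1.92 FPKM lay level with DEN 4 at 1.93 FPKM.

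The spindle checkpoint and protein degradation genes had a median log2 change of 1.12 in DEN, with 5 of 5 positive. Limma called 0 of them, and 3 stood at an unadjusted p under 0.05 (18.4% of all genes). edgeR called Bub1 higher (2.83% of all genes), and DESeq2 called Bub1, Ttk, Cdc20 and Ube2c higher (6.2% of all genes). At the filter minimum Bub1 had 0 Untreated libraries, Ttk and Bub1b had 1 and Ube2c had 3. These genes passed the filter only with carcinogen mice, so the calls of Bub1, Ttk and Ube2c do not count as support. Cdc20, which directs the anaphase-promoting complex to its mitotic substrates, was at 0.289, 0.990, 3.09, 2.17 and 6.43 FPKM in DEN_CAF, at 1.71, 1.26, 0.777 and 0.948 FPKM in DEN_SOR and at 3.17, 2.55, 0.542, 1.61 and 0.747 FPKM in DEN_CAF_SOR. It was at 0.527, 1.13, 1.94, 3.59, 1.30 and 1.33 FPKM in DEN and at 0.114, 0.718, 0.381, 0.544 and 0.411 FPKM in Untreated mice. All DEN_SOR mice exceeded the Untreated mice, and DEN 1, DEN_CAF 1 and DEN_CAF_SOR 3 lay inside their range. The log2 change in DEN was 1.34 (SE 0.49, limma adjusted p = 0.136). Ube2c, the ubiquitin-conjugating enzyme of the same complex, had a log2 change of 1.28, and the checkpoint genes Bub1, Ttk and Bub1b had log2 changes of 1.12, 0.87 and 0.67.

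All 8 spindle and division genes were positive in DEN, with a median of 0.82. Stmn1 (ENSMUSG00000028832, chr4:134195631-134201154, plus strand), which encodes stathmin, a tubulin-binding protein, was at 3.91, 2.57, 5.26, 6.60 and 7.92 FPKM in DEN_CAF, at 6.38, 4.23, 4.61 and 6.33 FPKM in DEN_SOR and at 5.46, 5.59, 3.25, 5.66 and 1.88 FPKM in DEN_CAF_SOR. It was at 2.71, 3.40, 5.43, 5.25, 3.66 and 3.39 FPKM in DEN and at 1.18, 1.98, 1.70, 2.14 and 2.13 FPKM in Untreated mice. Only DEN_CAF_SOR 5 fell inside the Untreated range, and DEN 4 did not stand out. Stmn1 rose by 1.33 in DEN_CAF (SE 0.29, limma adjusted p = 0.0155), by 1.44 in DEN_SOR (SE 0.31, limma adjusted p = 0.00851) and by 1.01 in DEN (SE 0.28, limma adjusted p = 0.0453). In DEN_CAF_SOR its change was 1.07 (SE 0.29, limma adjusted p = 0.0780). Nusap1, a spindle assembly protein, and the kinetochore genes Cenpf and Cenpe had log2 changes of 1.37, 1.18 and 0.86 in DEN, not called by limma. The midzone protein Prc1, the cytokinesis motor Kif20a, survivin (Birc5) and the spindle motor Kif11 had log2 changes of 0.78, 0.65, 0.48 and 0.11, and all 4 overlapped between DEN and Untreated. Cenpf had 0 Untreated libraries at the filter minimum, Nusap1, Cenpe and Prc1 had 1, and Kif20a had 3. These genes passed the filter only with carcinogen mice.

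The 3 drug groups also lay above Untreated for most of the 40 genes. The log2 change was positive for 35 of the 40 in DEN_CAF (median log2 change 0.78), 35 in DEN_SOR (0.55) and 36 in DEN_CAF_SOR (0.74). By limma 1 of the 40 rose in DEN_CAF (Stmn1, where 0.994% of all genes were called higher and 1.65% in either direction), 3 rose in DEN_SOR (Ccne1, Ccnb1 and Stmn1, where 3.07% were called higher, 2.23% lower and 5.29% in either direction) and 0 were called in DEN_CAF_SOR (background 0.884%), in which 14 stood at an unadjusted p under 0.05, as did 13.9% of all genes. Ccnb1 passed the filter on low values only through carcinogen mice, so its DEN_SOR call does not count as support. In DEN_CAF, edgeR called 4 of the 40 higher (1.35% of all genes), and DESeq2 called 9 higher (2.67%) and Tk1 lower (1.39%). In DEN_SOR, edgeR called 3 higher (4.66%) and DESeq2 called 7 higher (8.73%). In DEN_CAF_SOR, edgeR called 2 higher (0.821%) and DESeq2 called 8 higher (2.26%). The median change in DEN_CAF was 0.47 without DEN_CAF 5. Within libraries numbered 3 or 4 the medians were 0.74 in DEN_CAF, 0.36 in DEN_SOR and 0.48 in DEN_CAF_SOR, and within the rest they were 0.85, 0.94 and 0.99. The limma count in DEN_CAF was 0 without DEN_CAF 5 or without Untreated 1, and 3 without DEN_CAF 1. That in DEN_SOR was 1 without DEN_SOR 1 or 2 or without any 1 Untreated mouse. In DEN_CAF_SOR it was 1 without mouse 5. All 3 counts were 0 without the Xist-bearing Untreated libraries. Shares of all genes called in these reduced fits are not given. Every mouse exceeded every Untreated mouse for 6 members in DEN_CAF (2.95% of all genes), 8 in DEN_SOR (5.39%) and 3 in DEN_CAF_SOR (3.39%). Ccnb1 in all 3 groups, Cenpf in DEN_CAF and DEN_SOR, and Nusap1 and Cenpe in DEN_SOR were among these members. Ccnb1 and Cenpf had 0 Untreated libraries at the filter minimum, and Nusap1 and Cenpe had 1. All of them passed the filter on low values only through carcinogen mice, so they do not count as support. These comparisons share the Untreated mice.

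The drug groups were compared with DEN to ask about caffeine alongside sorafenib after the carcinogen. These comparisons share the DEN mice. In each of the 3 comparisons 0 of the 40 were called by limma, edgeR and DESeq2, with 0% of all genes called by limma and by edgeR. DESeq2 called 0.0574% of all genes in DEN_CAF, 0.172% in DEN_SOR and 0% in DEN_CAF_SOR. At an unadjusted p under 0.05 limma placed 0 members in DEN_CAF (2.65% of all genes), 1 in DEN_SOR (7.36%; Mcm4, log2 change -0.73, unadjusted p = 0.0398 in limma) and 0 in DEN_CAF_SOR (3%). Member changes ran from -0.61 to 0.44 in DEN_CAF, from -0.82 to 0.70 in DEN_SOR and from -0.48 to 0.33 in DEN_CAF_SOR. The 95% intervals remained wide. For Mki67 they were -1.37 to 0.88 in DEN_CAF, -1.14 to 1.27 in DEN_SOR and -1.21 to 1.05 in DEN_CAF_SOR, all on the log2 scale and not adjusted for the number of genes. The missing calls do not show that the groups were alike. Between combination and sorafenib alone, between combination and caffeine alone and for the caffeine by sorafenib interaction, limma, edgeR and DESeq2 likewise called 0 members. Of all genes, DESeq2 called 0.0172%, 0% and 0.0516% in these comparisons, and limma and edgeR called 0%. At an unadjusted p under 0.05 limma placed 0 members, where 4.44%, 2.7% and 4.66% of all genes stood. The member median of each of these 3 comparisons changed sign with at least 1 library left out. The median was 0.09 between combination and sorafenib alone and ran from -0.03 to 0.20 with 1 library left out, with the lowest value without DEN_CAF_SOR 1 and a negative one, -0.01, also without DEN_SOR 4. Within libraries numbered 3 or 4 it was 0.08, and 0.02 in the rest. Between combination and caffeine alone it was 0.0028, 0.30 without DEN_CAF 5 and -0.25 without DEN_CAF 1, -0.22 within libraries numbered 3 or 4 and 0.18 in the rest, and -0.03 without TMM factors. For the interaction it was 0.16, 0.46 without DEN_CAF 5 and -0.04 without DEN 4, and 0.75 within libraries numbered 3 or 4 and -0.14 in the rest.

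The direction of the drug comparisons turned with single libraries, and in all 3 with DEN 4. The member median was -0.10 in DEN_CAF, -0.19 in DEN_SOR and -0.10 in DEN_CAF_SOR against all 6 DEN mice. Without DEN 4 it was 0.15, 0.06 and 0.13 on the same scale. With the mouse number as a block, the median of DEN_CAF against DEN was -0.17. By group means of FPKM, 13 of the 40 genes were higher in DEN_CAF than in DEN, and 31 were higher once DEN 4 was left out. In DEN_SOR these counts were 7 and 23, and in DEN_CAF_SOR they were 13 and 35. For Mki67, DEN_CAF averaged 0.858 ± 0.820 FPKM (SD, n = 5), DEN_SOR 0.738 ± 0.0750 (SD, n = 4), DEN_CAF_SOR 0.768 ± 0.435 (SD, n = 5) and DEN 1.03 ± 1.19 (SD, n = 6), or 0.562 ± 0.354 without DEN 4 (SD, n = 5). The median of DEN_CAF against DEN was also positive without DEN_CAF 1 (0.04) or DEN_CAF 2 (0.0087), and -0.31 without DEN_CAF 5. That of DEN_CAF_SOR against DEN was also positive without its mouse 3 (0.0077) or mouse 5 (0.04). Within libraries numbered 3 or 4, of which DEN 4 is 1, the medians were -0.65 in DEN_CAF, -1.16 in DEN_SOR and -0.85 in DEN_CAF_SOR. Within the rest they were 0.17, 0.28 and 0.37, so the number classes went opposite ways.

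**Figure D3:**
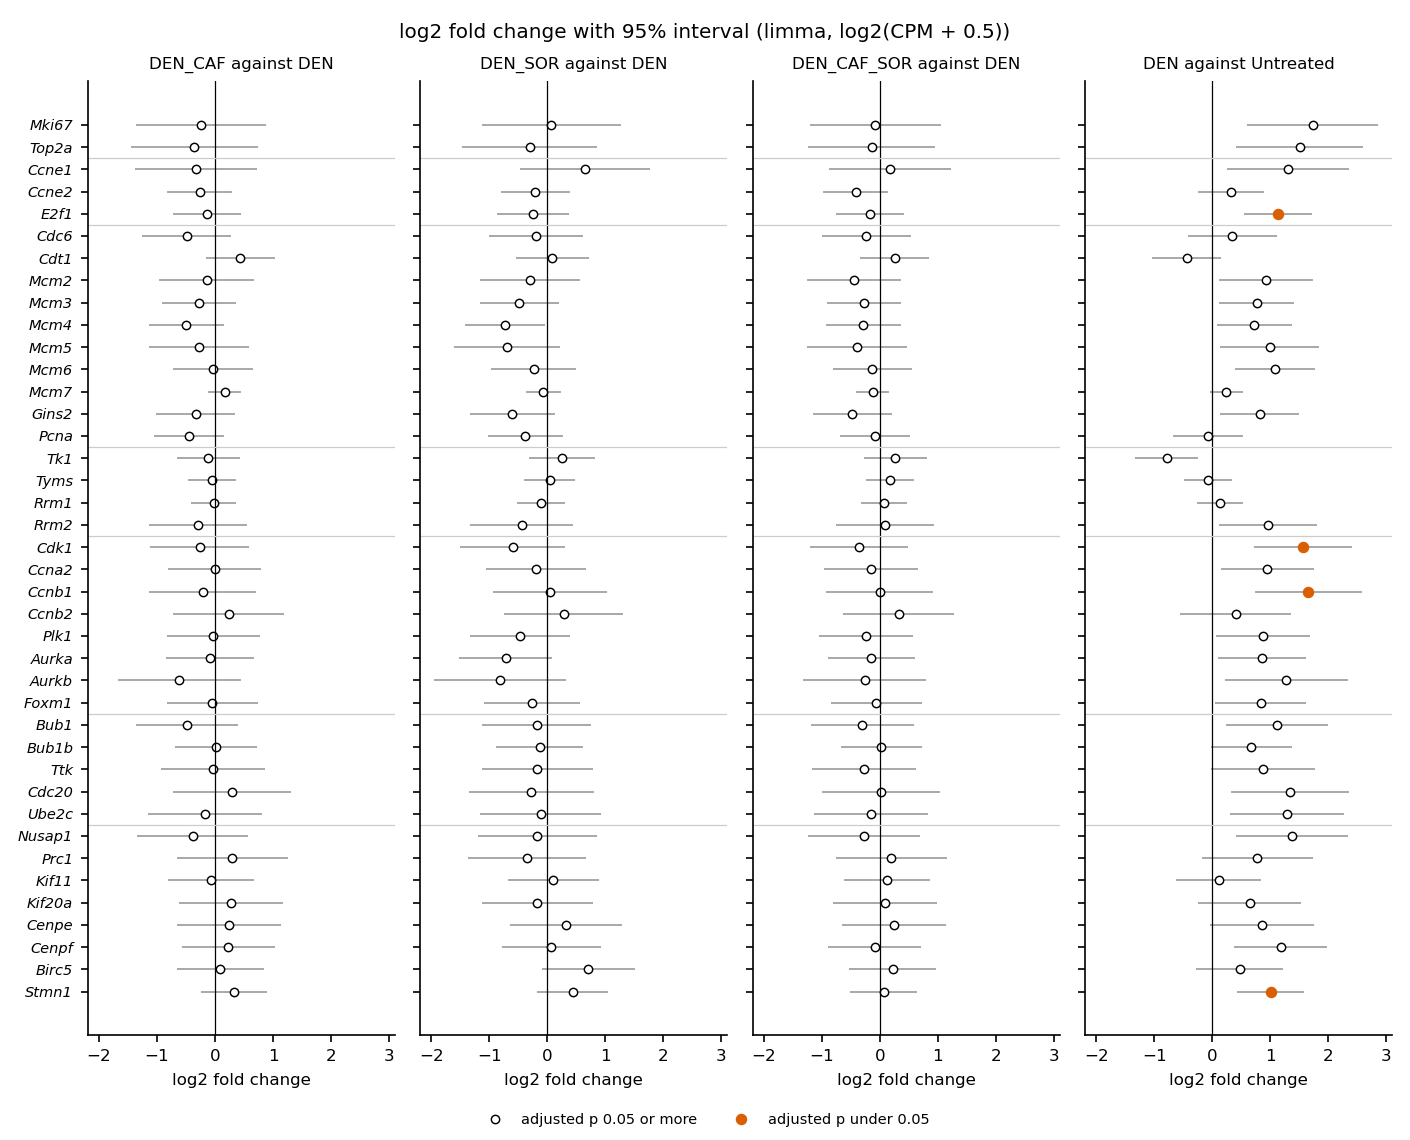
log2 fold change (limma, log2(CPM + 0.5)) of each of the 40 genes with its 95% interval in the 3 drug groups against DEN and in DEN against Untreated; orange points have an adjusted p under 0.05. Points of the drug comparisons lie around 0, and 36 of 40 points of DEN against Untreated lie to the right of 0.

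Mouse by mouse, a few animals were high for most of the 40 genes. DEN 4 had the highest value of its group for 36 of the 40 genes and DEN_CAF 5 for 36 of the 40, where 25% and 28.6% of all genes peaked in those mice. In DEN_CAF_SOR, mouse 1 was highest for 21 (22.8% of all genes), and in DEN_SOR, mouse 1 was highest for 17 (21.4%). In DEN_CAF mice 1 to 5, 8, 17, 31, 23 and 38 of the 40 genes lay above every Untreated mouse, where 21.1%, 16.9%, 24.6%, 24.1% and 23% of all genes did. In DEN_SOR mice 1 to 4 the counts were 26, 25, 20 and 17, against 27.8%, 22.4%, 27.2% and 27.4% of all genes. In DEN_CAF_SOR mice 1 to 5 they were 34, 31, 12, 28 and 10, against 24.9%, 21.4%, 27%, 24.3% and 17.2% of all genes. DEN_CAF and DEN_CAF_SOR thus each held mice with nearly all and mice with few of the genes above the Untreated range, and DEN_SOR was the most even group. In DEN mice 1 to 6 they were 17, 23, 30, 38, 18 and 22, against 22.7%, 19.7%, 29.7%, 29.8%, 20.2% and 17.2% of all genes. In 19 of 20 carcinogen mice the members' share exceeded that of all genes, DEN_CAF 1 being the exception. In DEN_CAF_SOR 3, with 12 of the 40 against 27%, the excess was slight. All 20 were set against the same Untreated mice, so they are not separate tests. The members include Ccnb1, Aurkb, Bub1 and Cenpf, which passed the filter only through carcinogen mice. Bub1b, Ttk, Nusap1, Prc1 and Cenpe had 1 Untreated library at the minimum, Cdc6 had 2, and Plk1, Aurka, Ube2c and Kif20a had 3. These too reached the required 4 libraries only with carcinogen mice. The median member difference from the Untreated mean was 2.12 in DEN 4, 1.90 in DEN_CAF 5 and 1.37 in DEN_CAF_SOR 1 on the log2(CPM + 0.5) scale, and -0.10 in DEN_CAF 1.

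**Figure D4:**
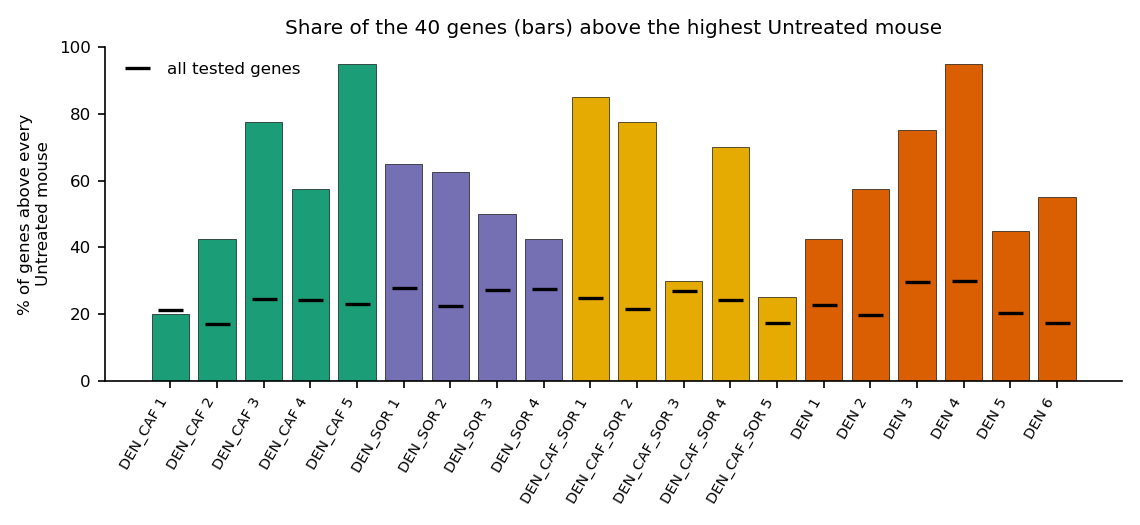
Percent of the 40 genes (bars) and of all tested genes (black marks) whose level in a given carcinogen mouse is above that of every Untreated mouse. Bars of DEN_CAF 5 and DEN 4 stand for 38 of 40 genes each, and the bar of DEN_CAF 1, for 8 of 40, lies under its mark.

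DEN 4 and DEN_CAF 5 differed in which members were highest. The median difference from the Untreated mean over licensing and replication genes was 1.98 in DEN 4 and 1.03 in DEN_CAF 5, while over spindle and division genes it was 1.87 in DEN 4 and 2.66 in DEN_CAF 5. These are single mice and the difference was not tested. Cdc6 was at 0.657 FPKM in DEN 4 and 0.131 FPKM in DEN_CAF 5, whereas Kif20a was at 0.402 FPKM in DEN 4 and 2.11 FPKM in DEN_CAF 5. Markers of other cells also differed between the mice with the highest member levels. The Kupffer cell sum was 120 FPKM in DEN_CAF 5, 143.7 in DEN_CAF_SOR 1 and 21.75 in DEN 4, the lowest of all mice. In Untreated mice this sum ran from 61.08 to 125.9 FPKM, a range that holds the value of DEN_CAF 5. The T and NK cell sum was 6.91 FPKM in DEN_CAF 5 and 7.23 FPKM in DEN_CAF_SOR 1, above all other mice, and 2.75 FPKM in DEN 4. The part of these cells in the member levels was not tested.

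Other genes of the cycle gave a mixed picture in DEN against Untreated. Of 30 other S phase genes 29 were tested, with a median log2 change of 0.30, and 24 were positive. Of 40 other G2 and mitosis genes 38 were tested, with a median of 0.70, and 35 were positive, 13 stood at an unadjusted p under 0.05 (18.4% of all genes) and 0 were called by limma. The 17 genes of E2F, pocket protein and MuvB factors had a median of -0.03, with 0 called by limma and 4 at an unadjusted p under 0.05. Among 9 tested hepatocyte mitogens, receptors and Myc, Met, the receptor of hepatocyte growth factor, fell by 0.58 (limma adjusted p = 0.0138). Limma called 1.71% of all genes lower. Myc, a growth-promoting transcription factor, had a log2 change of 0.71 (limma adjusted p = 0.390).

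Among cycle regulators outside the 40 genes, Cdkn1a encodes p21, a p53 target that inhibits cyclin-dependent kinases. It was at 14.7, 12.1, 13.5, 10.7 and 10.03 FPKM in DEN_CAF, at 12.8, 5.92, 23.4 and 3.31 FPKM in DEN_SOR and at 8.26, 11.5, 4.34, 5.12 and 16.8 FPKM in DEN_CAF_SOR. It was at 82.2, 9.34, 6.30, 7.96, 9.44 and 12.1 FPKM in DEN and at 0.458, 1.81, 1.14, 1.56 and 1.31 FPKM in Untreated mice. Every carcinogen mouse lay above every Untreated mouse, and DEN 1 stood far above the rest. Cdkn1a rose against Untreated by 3.24 in DEN_CAF, 2.78 in DEN_SOR, 2.67 in DEN_CAF_SOR and 3.32 in DEN, with limma adjusted p-values of 0.00178, 0.00712, 0.0145 and 0.000623. Against the Untreated mean, the median of the 40 genes was 0.18 in DEN 1, the mouse with the highest Cdkn1a level, and 0.28 in DEN_SOR 4, the carcinogen mouse with the lowest. Cdkn2c (p18) rose by 1.46 in DEN_CAF (limma adjusted p = 0.0418) and 1.57 in DEN_CAF_SOR (limma adjusted p = 0.0379), and its change was 1.03 in DEN (limma adjusted p = 0.108). Ccnd1, which encodes cyclin D1, the mitogen-induced partner of CDK4 and CDK6, rose by 1.88 in DEN_CAF (limma adjusted p = 0.0122) and 1.66 in DEN_SOR (limma adjusted p = 0.0250). Its change was 1.28 in DEN_CAF_SOR and 1.19 in DEN, with limma adjusted p-values of 0.128 and 0.0867. Cdk2, the partner of cyclin E, fell by 0.75 in DEN_SOR (limma adjusted p = 0.00855) and by 0.55 in DEN (limma adjusted p = 0.0358). Values without DEN 4 or without the Xist-bearing libraries are not given for these regulators.

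**Figure D5:**
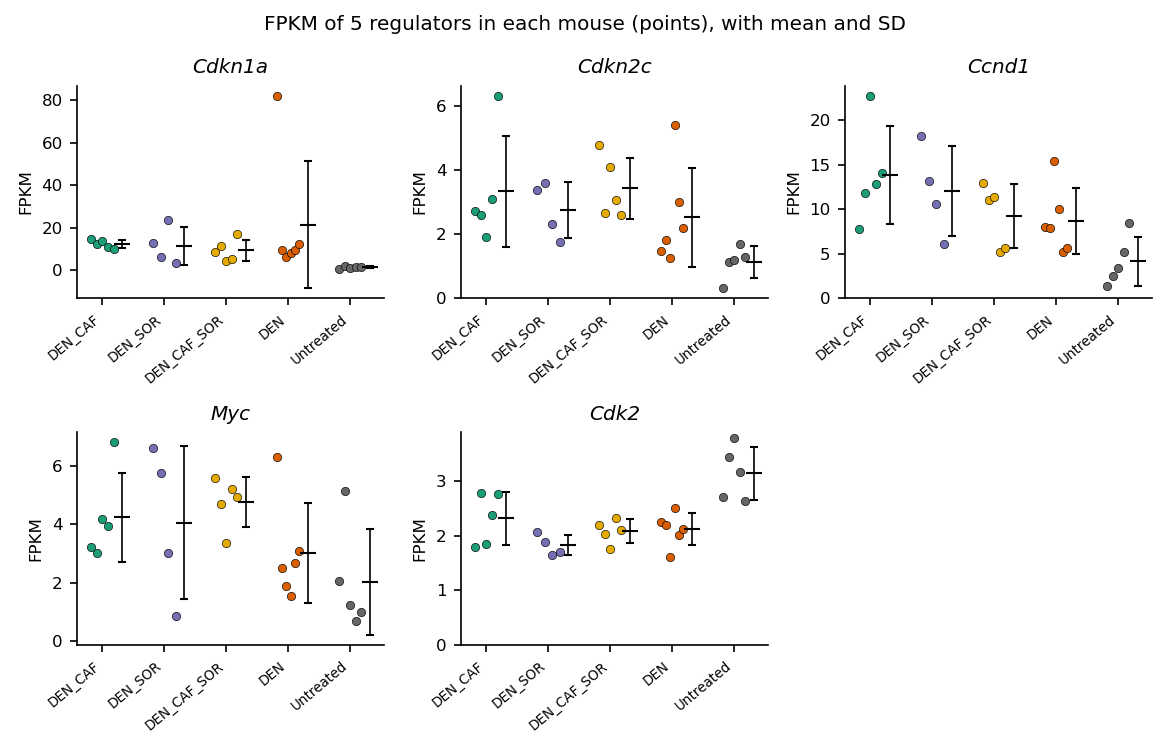
FPKM of 5 regulators outside the 40 genes in each mouse (points), with the mean and SD of each group, from DEN_CAF at the left to Untreated at the right. Cdkn1a is above the Untreated mice in all 20 carcinogen mice with DEN 1 at 82.2 FPKM, and Cdk2 is higher in Untreated mice than in every DEN and DEN_SOR mouse.

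Markers of tumours and of other cells moved in the same comparison. By limma 1.46% of all genes were called higher in DEN against Untreated and 1.71% lower. In that comparison 4 of 7 tested oncofetal markers rose, H19 by 6.16, Tspan8 by 3.45, Gpc3 by 2.09 and Dlk1 by 1.69 on the log2 scale (limma adjusted p = 0.000702, 0.00768, 0.0406 and 0.0163). Their list's summed level was low in Untreated mice, at 0.3017 to 4.511 FPKM, and ran from 9.294 to 1549 FPKM in DEN, with the highest sum in DEN 4. Of 6 bile duct markers Krt19, Epcam, Sox9 and Spp1 rose by 2.18, 1.94, 1.55 and 1.87, and their list's summed level ran from 17.48 to 78.97 FPKM in DEN, against 6.695 to 13.81 FPKM in Untreated mice. The lowest of the DEN sums was that of DEN 4. Trem2 and Gpnmb, of 7 monocyte and macrophage markers, rose by 1.15 and 1.22, and Col1a1, of 8 stellate cell and fibroblast markers, by 1.87. Klf1, of 6 tested erythroid markers, fell by 1.26. By limma 0 of 8 hepatocyte, 6 Kupffer cell, 4 tested neutrophil, 7 tested T and NK cell, 6 B and plasma cell and 7 liver endothelium markers were called. Values of these tests without DEN 4 or without the Xist-bearing libraries are not given. The part of these changes in the levels of the 40 genes was not tested.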

How the data were processed

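Total liver RNA of 25 mice was sequenced, 1 library a mouse. HISAT2 2.0.5 (an aligner), featureCounts 1.5.0-p3 (a read counter) and the build GRCm39 are named, per the submitters' processing notes; whether counting used strand is not given in the sources used here. The deposited tables name their values FPKM, but they behave as a signal per gene in which the authors' read counts were scaled by 1 factor per library, without gene length. Whole reads were recovered from the steps, with 100% of values within 0.01 read of a whole number. No per-sample column was left unused.

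Reads were scaled with TMM factors (edgeR 4.0.16), which ran from 0.839 to 1.102 of the library total, and FPKM was computed from them with the listed gene lengths. Genes with 0.5 CPM or more in at least 4 of 25 libraries entered limma 3.58.1 (R 4.3.3) with trend on log2(CPM + 0.5). The fit held all 5 groups, 10 comparisons and 20 residual degrees of freedom, with Benjamini-Hochberg adjustment at 0.05. Fold changes are on that log2 scale and understate the change of low genes. edgeR's quasi-likelihood test and DESeq2 1.42.0 on the recovered reads were alternatives, beside other scalings, added constants and filters, and each library left out. The procedure was tested on simulated data.

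Mouse numbers were checked for pairing: in DEN_CAF against DEN all 5 same-numbered pairs had deviations correlated above 0.1 (0.101 to 0.554, with 3 best with their own number), and in no other comparison did every pair. The labels do not say that replicates shared a litter or day, and p-values measure only the spread between these mice. The members and gene lists were chosen with earlier results of these data known. Values of each mouse are given for 10 members taken from all roles, for the called members (at most 3 a comparison) and for Tk1. Of other lists, called genes (at most 4) and Cdkn1a, Ccnd1 and Myc are named, and 1 result is not reported here. Gene positions are those of the deposited tables (GRCm39), and promoters are RefSeq's in GRCm38.p6.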

Additional observations from a re-analysis of the deposited data

Results flagged for a closer look

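Each of the 40 genes was examined in each of the 5 groups for a mouse far from the others of its group, by Dixon's ratio at its 95% critical value on the log2(CPM + 0.5) scale. Chance alone gives about 1 in 20 groups, and 17 of 200 were found, of which 12 were high. In 8 of them the mouse was DEN 4, with Top2a at 1.68 FPKM, Cdc6 at 0.657 FPKM, Mcm6 at 3.74 FPKM, Tyms at 2.23 FPKM, Rrm1 at 1.67 FPKM, Cdk1 at 3.03 FPKM, Foxm1 at 1.17 FPKM and Birc5 at 1.68 FPKM. In 2 of them it was DEN_CAF 5, with Ccnb1 at 1.76 FPKM and Cenpf at 0.434 FPKM. The other high values were Ccnb2 at 1.92 FPKM in Untreated 4 and Bub1b at 0.195 FPKM in Untreated 5. Low values were Cdt1 at 1.04 FPKM in DEN_CAF_SOR 5, Mcm4 at 0.269 FPKM in DEN_SOR 4 and at 0.233 FPKM in DEN_CAF_SOR 4, Mki67 at 0.119 FPKM in Untreated 1 and Ccna2 at 0.204 FPKM in Untreated 5. On the FPKM scale, a choice made after seeing the data, 36 of 200 were found, 14 of them shared with the log2 scale. DEN 4 accounted for 20 of the 36, Mki67 and Mcm2 among them, and DEN_CAF 5 for 9.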

How the results depend on the processing

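The number of the 40 genes called depended on the tool and the libraries, and causes were not tested. Shares of all genes called are not given for each alternative, so a change of count cannot be read as particular to the members. Against Untreated, limma called 1 in DEN_CAF, 3 in DEN_SOR, 0 in DEN_CAF_SOR and 4 in DEN. With the library total taken without mitochondrial genes, DEN_CAF had 4. The median of all genes was then 0.18 in DEN_CAF, 0.17 in DEN_SOR, 0.12 in DEN_CAF_SOR and 0.14 in DEN. With 0.1 CPM added, DEN_CAF had 3 and DEN_CAF_SOR 1; with 2 CPM added, and likewise with no filter, DEN_SOR had 1 and DEN 1. On log2(FPKM + 1), which kept 22 of the 40, DEN_SOR had 1 and DEN 0. edgeR called 4 in DEN_CAF, 2 in DEN_CAF_SOR and 10 in DEN, and DESeq2 called 10, 7, 8 and 20 in DEN_CAF, DEN_SOR, DEN_CAF_SOR and DEN. With a batch term for libraries numbered 3 and 4, DEN_CAF_SOR had 1. Within those libraries, whose Untreated mice are both Xist-bearing, DEN_CAF and DEN_SOR had 0 and DEN 9. Within the rest DEN_CAF had 0, DEN_SOR 1 and DEN 0, with 1 gene (Ccne1) called in DEN_SOR against DEN. Without the Xist-bearing Untreated libraries all had 0. Fitted on the compared groups alone, DEN_CAF had 3, DEN_SOR 8, DEN_CAF_SOR 3 and DEN 2. With 1 library left out, the counts ran from 0 to 3 in DEN_CAF, 1 to 2 in DEN_SOR, 0 to 1 in DEN_CAF_SOR and 0 to 5 in DEN, and stayed at 0 in the comparisons among carcinogen groups.

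Small changes of Pcna and Mki67 turned sign. Pcna in DEN against Untreated (-0.08) was 0.0098 without TMM factors, 0.0713 without mitochondrial genes, 0.0094 on log2(FPKM + 1), 0.0275 within libraries not numbered 3 or 4 and 0.13 without the Xist-bearing libraries, and -0.18 to 0.0537 with 1 library left out. Mki67 in DEN_SOR against DEN (0.07) was -0.0682 on log2(FPKM + 1), -0.48 by edgeR, -0.50 by DESeq2, -0.0334 with the batch term and -1.51 within libraries numbered 3 and 4, and -0.14 to 0.51 with 1 library left out. Within libraries not numbered 3 or 4 it was 0.17 in DEN_CAF and 0.75 in DEN_CAF_SOR against DEN. With 1 library left out, these ran from -0.70 to 0.24 and from -0.30 to 0.36.

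Mouse numbers shared between groups met the pairing check in DEN_CAF against DEN alone, where the member median was -0.17 with the replicate block and -0.10 without it, with 0 calls either way. Over all comparisons, 19 of 42 same-numbered pairs had deviations correlated above 0.1 (range -0.27 to 0.55), and in 12 the own number correlated best. With the replicate number as a block, limma called 1 in DEN_CAF, 2 in DEN_SOR, 0 in DEN_CAF_SOR and 3 in DEN against Untreated, and Mki67 in DEN_SOR against DEN was -0.0309.

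Adjusted p over these alternatives ran from 0.00094 to 0.201 for E2f1, 0.000753 to 0.325 for Cdk1, 0.000261 to 0.424 for Ccnb1 and 0.00521 to 0.345 for Stmn1 in DEN by limma, edgeR or DESeq2. Depth limits the low members, of which 23 had fewer than 10 reads in at least 1 library.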
